A study of Rattus norvegicus with 9 samples.

Results

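Interleukins and interleukin receptor chains, 10 genes in all, were followed across rat primary hippocampal neuron cultures exposed to NPCT or PCT. NPCT (aminoprocalcitonin) is the amino-terminal peptide cleaved from PCT (procalcitonin). The 10 genes are 3 ligands (Il18, Il33 and Il7) and 7 receptor chains (Il1r1, Il1rap, Il6st, Il6r, Il11ra1, Il10rb and Il13ra1), found by symbol among the 34092 genes of the table. They were chosen by symbol with the FPKM of these libraries and their differences between groups in view, and no limit on those values is recorded, so that counts over the 10 genes describe these libraries and are no independent evidence. Hippocampi of wild-type rat fetuses at embryonic day 17 gave the cultures, grown to 7 days in vitro, in the methods without an agent against dividing cells. Of 9 RNA-seq libraries, 3 came from cultures given vehicle, 3 from cultures given 1 nM human NPCT and 3 from cultures given 1 nM human PCT, both peptides for 24 h. The labels number 3 replicates per group while the methods speak of pooled biological triplicates, so the p values measure the spread between these libraries only, which may be technical.

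Interleukins are secreted signals that cells read through receptors built from a ligand-binding chain and a shared chain. IL-1 and IL-33 receptors both need the accessory chain IL1RAP and signal through MyD88 to NF-kB, the IL-6 family shares gp130 (Il6st) and signals through JAK kinases and STAT3, and the IL-10 and IL-13 chains are likewise shared by several cytokines. In the brain, microglia and astrocytes are main sources and targets of these signals, and neurons carry some of the receptors.

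Levels are FPKM, fragments per length of gene scaled to a total for the library, in which genes of unequal length can be compared. The total implied by the values departed from the library's own by -2.31% (PCT replicate 1) to 3.03% (NPCT replicate 1). A library held between 13573056 and 17211642 fragments, of which the 10 genes together took between 3290 and 4640. Neuron markers were high in every group, with Stmn2 at 756 ± 12.5 FPKM in vehicle cultures (SD, n = 3), but so were markers of astrocytes, with Gfap at 776 ± 48.1 FPKM. Microglia markers were low in vehicle cultures, where Csf1r stood at 3.82 ± 0.900 FPKM, with a sum over the 14 markers of 94.0 ± 7.88 FPKM. Fibroblast and meningeal markers had a like sum of 94.7 ± 3.75 FPKM, of which Fn1 gave 43.4. Of the endothelial and pericyte markers, Cldn5 was at 0 in all 9 libraries, while Pdgfrb stood at 3.31 and Kdr at 0.936 FPKM. The labelled neurons are thus cultures that also hold RNA of glial and other non-neuronal marker genes, and in bulk RNA fewer cells of a type and less RNA per cell cannot be told apart. Over all genes, PCT replicate 3 differed most from the other libraries of its group, with a chi-square per degree of freedom of 23.0 and 20.2. For NPCT replicate 3 these values were 11.3 and 11.4. In microglia markers 1 library, NPCT replicate 3, stood apart. The 14 microglia markers summed to 274 FPKM in it, against 90.2 as the lowest NPCT value and 84.9 to 98.7 FPKM in vehicle cultures, so the NPCT differences of the 10 genes, and the calls of other pathway genes that use NPCT libraries, are also given without it.

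In vehicle cultures the 10 genes spanned a 61.0-fold range of levels. Il6st was highest with 36.8 ± 2.24 FPKM (SD, n = 3), followed by Il1r1 with 18.6 ± 1.72, Il33 with 16.3 ± 1.24 and Il11ra1 with 12.5 ± 0.482 FPKM. The libraries of Il1r1 and Il33 overlapped, whereas those of the other neighbours among these 4 did not. A step of 3.15-fold separated Il11ra1 from Il10rb, which stood at 3.97 ± 0.283 FPKM. Below it came Il1rap with 3.54 ± 0.356, Il18 with 2.83 ± 0.653, Il6r with 2.14 ± 0.151 and Il7 with 2.11 ± 0.620 FPKM, and from Il10rb to Il7 each gene overlapped its next neighbour. The row named Il13ra1 was lowest with 0.604 ± 0.168 FPKM, just above the mean of 0.5 FPKM over the 9 libraries that a gene needed to be tested. All 10 genes met that limit, Il7 and Il13ra1 although their PCT means were below it.

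**Figure D1:**
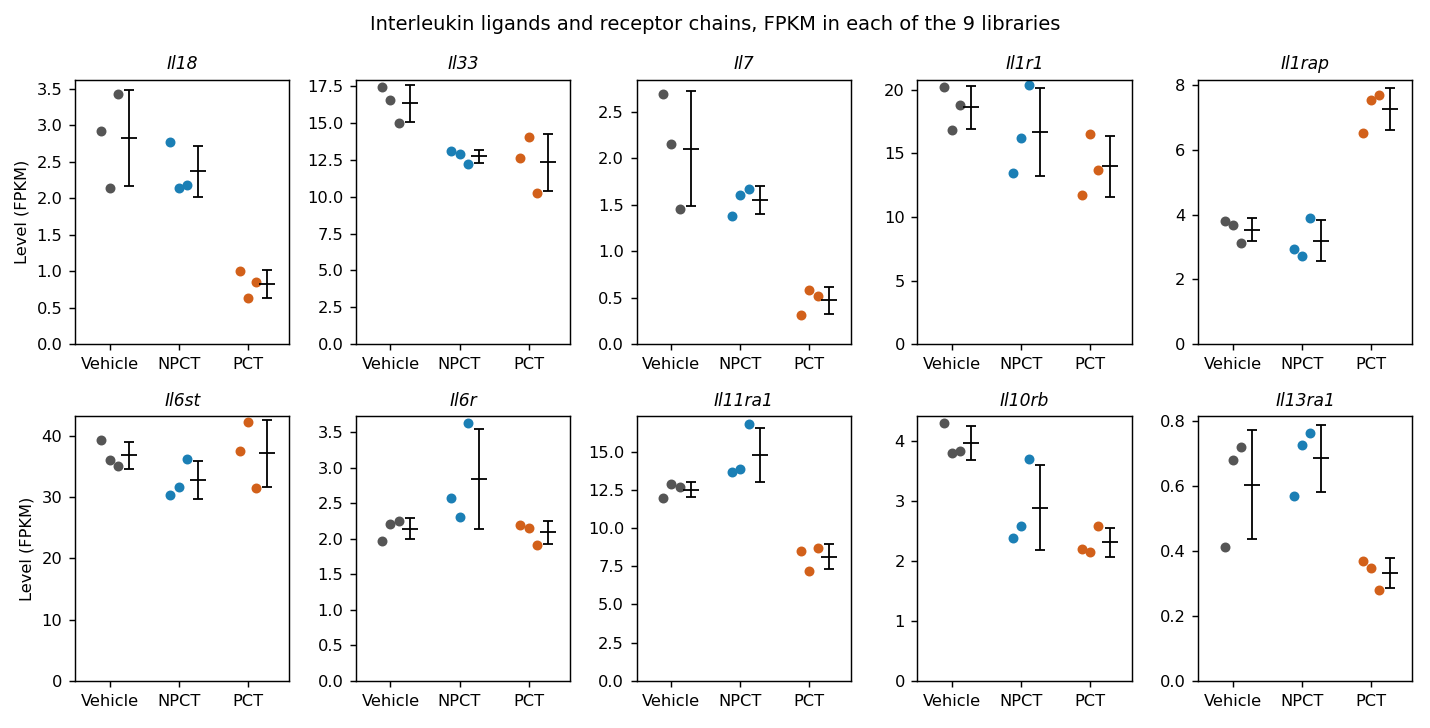
FPKM of the 10 genes (vertical axes, from 0) in the 3 vehicle, 3 NPCT and 3 PCT libraries, with the group mean and SD beside the points. The PCT libraries of Il18, Il7, Il11ra1 and Il10rb lie below all vehicle libraries and those of Il1rap above them.

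Differences were fitted with limma on log2(FPKM + 0.1) over all 15958 genes with a mean of at least 0.5 FPKM, and a gene was called where its p, adjusted after Benjamini-Hochberg, did not exceed 0.05 and its fold change exceeded 1.5. Against vehicle, PCT changed 5 of the 10 genes. Il18, Il7, Il11ra1 and Il10rb fell and Il1rap rose, where 2.31% of all genes tested were called, 1.72% as lower and 0.589% as higher. With NPCT, 0 of the 10 were called by limma, where 0.219% of all genes were. At an unadjusted p under 0.05 there were 2 with NPCT (Il33 and Il10rb), where 29.3% of all genes passed that limit, and limma-voom on the recovered fragments also called 0. Directly between the peptides, 4 of the 10 differed, Il18, Il7 and Il11ra1 being higher and Il1rap lower with NPCT than with PCT, where 5.76% of all genes were called, 4.38% as higher and 1.38% as lower. Without NPCT replicate 3, limma called 0% of all genes with NPCT, so that none of the 10 could be called, and 3 of the 10 were at an unadjusted p under 0.05, where 23.6% of all genes were. Between the peptides the same 4 were called without it, where 3.93% of all genes were. The NPCT differences were then -0.18 for Il18, -0.33 for Il33, -0.44 for Il7, -0.31 for Il1rap (adjusted p = 0.209), -0.25 for Il6st and 0.11 for the row named Il13ra1, and those of the other 4 genes are given with them below. The median log2 difference of the 10 genes was -0.17 with NPCT, -0.52 with PCT and 0.34 for NPCT against PCT, and that of all genes tested 0.0062, 0.0046 and -0.0076.

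PCT libraries did not overlap vehicle libraries in 8 of the 10 genes, 7 of them lower, where 24.9% of all genes did not overlap and 11.9% were lower. The corresponding number was 4 of 10 for NPCT, against 40.3% of all genes, and 6 of 10 between the peptides, against 33.4%. Both comparisons with vehicle share the 3 vehicle libraries, so their values are given side by side.

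**Figure D2:**
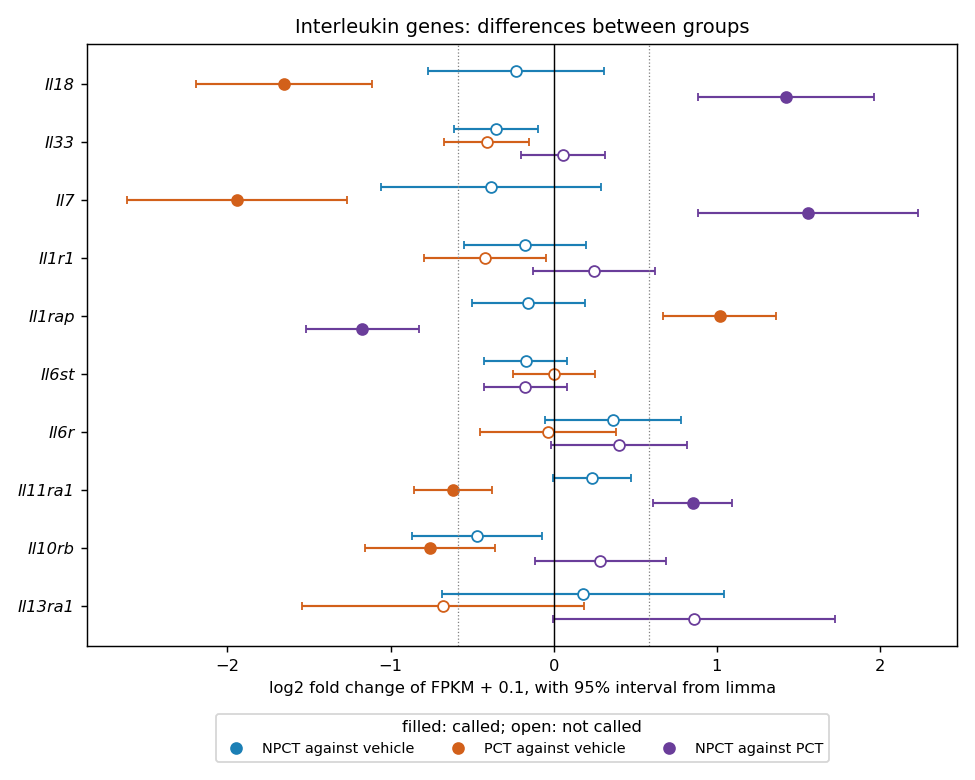
Log2 fold change of FPKM + 0.1 (horizontal axis) with its 95% interval from limma for each gene in NPCT against vehicle, PCT against vehicle and NPCT against PCT; dotted lines mark a fold change of 1.5. Filled points are called genes, 5 for PCT, 0 for NPCT and 4 between the peptides.

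Among the ligands, Il18 fell with PCT and showed no call with NPCT. Il18 encodes an IL-1 family cytokine that caspase-1 activates and that microglia and macrophages release, and it lies on chromosome 8 from 54993859 to 55016299 (Rnor_6.0, plus strand). Its levels were 2.91, 2.13 and 3.43 FPKM in the vehicle libraries, 2.77, 2.14 and 2.19 with NPCT and 1.00, 0.629 and 0.849 with PCT. Every PCT library was thus below every vehicle and every NPCT library, while vehicle and NPCT libraries overlapped. The PCT difference was -1.65 on the log2 scale (95% interval -2.19 to -1.11, limma adjusted p = 0.00731), the NPCT difference -0.23 (-0.77 to 0.31, adjusted p = 0.551), and NPCT exceeded PCT by 1.42 (0.88 to 1.96, adjusted p = 0.00776). The PCT values rest on 15, 9 and 15 fragments. On the opposite strand the span of Il18 overlaps those of Tex12 by 1013 and Bco2 by 5006 bases. Exons were not compared, and the methods name no strand-specific counting, so reads in any shared exon could not be told apart. Bco2 stood at 0.600 ± 0.0576 FPKM in vehicle and 0.240 ± 0.0854 in PCT libraries (SD, n = 3). Tex12 had 1.34 ± 0.968 and 0.600 ± 0.590 FPKM there and was not called (limma adjusted p = 0.408).

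The receptor of IL-18 was barely represented. Il18r1, which binds it, had 0 to 0.0528 FPKM over the 9 libraries and Il18rap, its signalling partner, 0 to 0.0674. Il18bp, a secreted protein that neutralises IL-18, had 7.62 ± 1.51 FPKM in vehicle, 9.22 ± 1.60 in NPCT and 8.60 ± 0.774 in PCT libraries and was not called (limma adjusted p = 0.284 with NPCT and 0.602 with PCT). These partners, like others named below for their role beside one of the 10 genes, were picked after their values were seen.

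Il33 was the most abundant of the 3 ligands and lay lower with both peptides without passing the adjusted threshold. It encodes a nuclear alarmin released by damaged cells, which astrocytes and oligodendrocytes hold in the brain, and lies on chromosome 1 from 248132090 to 248147029 (plus strand). The vehicle libraries had 17.4, 16.6 and 15.0 FPKM, the NPCT libraries 13.1, 12.9 and 12.2 and the PCT libraries 12.6, 14.1 and 10.3. Neither peptide's libraries reached the lowest vehicle library, and the peptides overlapped each other. The log2 difference was -0.35 with NPCT (-0.61 to -0.10, limma adjusted p = 0.0867) and -0.41 with PCT (-0.67 to -0.15, adjusted p = 0.0841). Il1rl1, the receptor of IL-33, had at most 0.117 FPKM in any library and was at 0 in all PCT libraries.

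Il7 had the largest fold difference of the 10 genes. It encodes a growth factor of lymphocytes and lies on chromosome 2 from 96439286 to 96474977 (plus strand). Its levels were 2.70, 2.16 and 1.46 FPKM with vehicle, 1.38, 1.60 and 1.67 with NPCT and 0.310, 0.582 and 0.524 with PCT. All PCT libraries were under the lowest of the other 6, and the NPCT libraries overlapped vehicle at its lower end. The log2 difference was -1.94 with PCT (-2.62 to -1.27, limma adjusted p = 0.0102), -0.38 with NPCT (-1.06 to 0.29, adjusted p = 0.420) and 1.56 for NPCT against PCT (0.88 to 2.23, adjusted p = 0.0130). The gene is shallow, with 45, 35 and 23 fragments in the vehicle libraries against 5, 9 and 10 in the PCT libraries, and without vehicle replicate 1 the PCT call was lost (adjusted p = 0.0572). Il7r, which with the common gamma chain binds IL-7, was under the limit for testing with 0.538 ± 0.134 FPKM in vehicle, 0.269 ± 0.166 in NPCT and 0.0604 ± 0.0528 in PCT libraries, and the gamma chain Il2rg had at most 0.146 FPKM.

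Of the 2 chains of the IL-1 receptor, Il1rap rose with PCT and Il1r1 was not called. Il1r1, the chain that binds IL-1, lies on chromosome 9 from 46962288 to 47036670 (plus strand), and Il1rap, the accessory chain without which no signal passes, on chromosome 11 from 77463954 to 77593207 (minus strand). Il1rap stood at 3.80, 3.68 and 3.13 FPKM with vehicle, 2.95, 2.73 and 3.91 with NPCT and 6.53, 7.54 and 7.70 with PCT. The PCT libraries were all above the other 6, which overlapped. Il1rap rose by 1.02 on the log2 scale with PCT (0.67 to 1.36, limma adjusted p = 0.00885) from 3.54 ± 0.356 to 7.26 ± 0.635 FPKM (SD, n = 3), differed by -0.15 with NPCT (-0.50 to 0.19, adjusted p = 0.531) and was lower by -1.17 with NPCT than with PCT (-1.52 to -0.83, adjusted p = 0.00288). It is the one gene of the 10 called as higher with PCT.

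Il1r1 had 20.2, 16.8 and 18.8 FPKM with vehicle, 13.5, 16.2 and 20.3 with NPCT and 11.7, 16.5 and 13.7 with PCT. The highest PCT library was just under the lowest vehicle library, and the NPCT libraries ranged over both. The log2 difference of -0.42 with PCT (-0.79 to -0.04, limma adjusted p = 0.208) was not called, nor was that of -0.17 with NPCT (-0.55 to 0.20, adjusted p = 0.514). Without NPCT replicate 3 the latter was -0.33 (adjusted p = 0.239). The ratio of Il1rap to Il1r1 levels was 0.191 ± 0.0261 in vehicle, 0.193 ± 0.0252 in NPCT and 0.525 ± 0.0599 in PCT libraries (SD, n = 3). All PCT ratios, from 0.456 to 0.563, were above the highest of the other 6, 0.219.

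The windows of 250 bases before the annotated starts of both chains are shown because they hold the only matches to the NF-kB motif among the 8 of the 10 genes with a RefSeq promoter entry (assembly GRCr8), and because both chains build a receptor upstream of NF-kB. Capitals mark the match, at bases 85 to 76 before the first of 2 annotated starts of Il1rap (chr11:87704343-87704592, minus strand) and at bases 135 to 126 before the start of Il1r1 (chr9:50034133-50034382, plus strand).
Il1rap: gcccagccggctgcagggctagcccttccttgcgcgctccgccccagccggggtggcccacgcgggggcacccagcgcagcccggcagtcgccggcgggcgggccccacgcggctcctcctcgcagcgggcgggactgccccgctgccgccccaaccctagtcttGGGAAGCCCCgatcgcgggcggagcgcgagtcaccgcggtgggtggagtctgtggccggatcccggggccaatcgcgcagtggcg
Il1r1: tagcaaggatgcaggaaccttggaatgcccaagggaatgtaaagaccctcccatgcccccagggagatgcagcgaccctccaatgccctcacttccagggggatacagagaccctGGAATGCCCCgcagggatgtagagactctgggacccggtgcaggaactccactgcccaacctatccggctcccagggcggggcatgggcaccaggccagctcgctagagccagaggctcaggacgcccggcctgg
The second start of Il1rap lies downstream and has the identical site at bases 166 to 157. The windows were searched on both strands for the NF-kB motif by name, for the STAT letters TTCNNNGAA and for the AP-1 letters TGANTCA. Of 33469 rat promoter windows of that length, 6.33% hold the NF-kB, 7.67% the STAT and 6.34% the AP-1 letters, and in the 10 windows of the 8 genes there was no STAT or AP-1 match. The windows of Il18 (chr8:59801822-59802071, plus strand) and Il10rb (chr11:44132386-44132635, plus strand), the called falling genes with an entry, are shown beside them and hold none of the 3 motifs.
Il18: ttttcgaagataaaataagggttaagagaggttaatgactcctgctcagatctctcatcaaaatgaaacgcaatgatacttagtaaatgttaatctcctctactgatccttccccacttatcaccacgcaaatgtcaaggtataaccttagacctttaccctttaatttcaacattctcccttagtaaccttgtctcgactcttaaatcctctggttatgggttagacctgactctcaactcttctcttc
Il10rb: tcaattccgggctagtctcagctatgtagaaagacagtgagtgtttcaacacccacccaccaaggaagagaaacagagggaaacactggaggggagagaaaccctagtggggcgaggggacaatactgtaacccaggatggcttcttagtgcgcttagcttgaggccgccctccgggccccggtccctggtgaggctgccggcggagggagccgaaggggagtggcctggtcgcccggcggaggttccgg
A match is a string of letters and no measured binding.

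**Figure D3:**
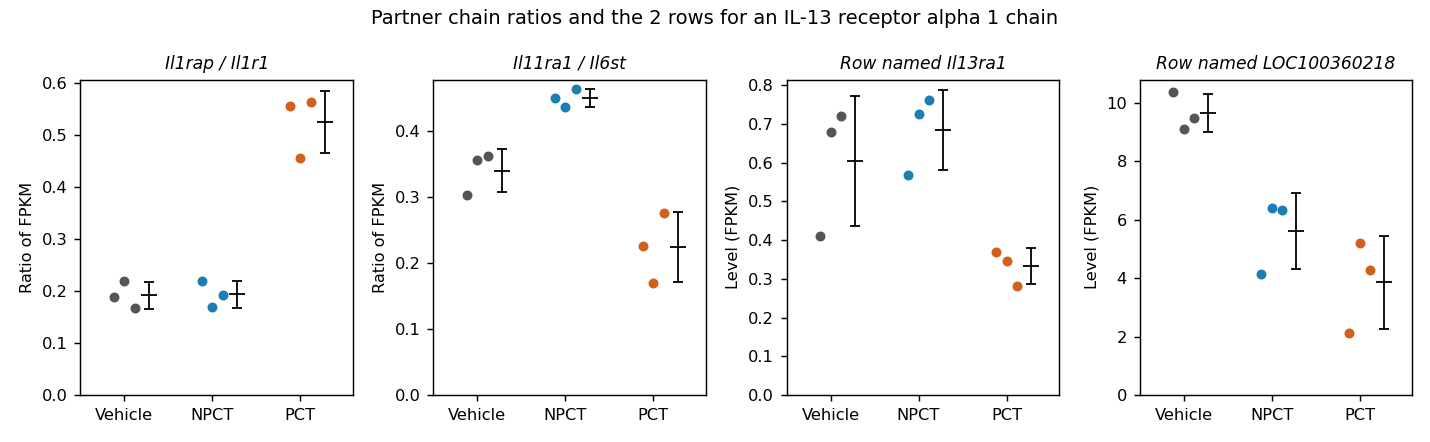
Ratio of FPKM between partner chains (Il1rap over Il1r1 and Il11ra1 over Il6st) and FPKM of the rows named Il13ra1 and LOC100360218, by library with group mean and SD; all axes start at 0. The PCT ratios of Il1rap to Il1r1 are all at 0.456 or above and the other 6 at 0.219 or below, while the ratios of Il11ra1 to Il6st are lowest with PCT and highest with NPCT.

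In the IL-6 family, the shared chain was not called and 1 of the 2 binding chains fell with PCT. Il6st encodes gp130, the signalling chain for IL-6, IL-11, LIF and relatives, on chromosome 2 from 44289393 to 44314944 (plus strand). It stood at 39.3, 36.1 and 35.0 FPKM with vehicle, 30.3, 31.7 and 36.3 with NPCT and 37.6, 42.3 and 31.5 with PCT. The 3 groups overlapped. The log2 difference was 0.00 with PCT (-0.25 to 0.26, limma adjusted p = 0.995) and -0.17 with NPCT (-0.43 to 0.08, adjusted p = 0.337), and these intervals exclude a 1.5-fold change.

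Il11ra1, the chain that binds IL-11, lies on chromosome 5 from 58151985 to 58159072 (plus strand) and shares 7 bases with Ccl27 on the opposite strand. Its levels were 11.95, 12.85 and 12.70 FPKM with vehicle, 13.7, 13.9 and 16.8 with NPCT and 8.50, 7.19 and 8.72 with PCT. The 3 groups did not overlap, with PCT lowest and NPCT highest. Il11ra1 fell by 0.62 on the log2 scale with PCT (-0.86 to -0.38, limma adjusted p = 0.0156), was higher by 0.23 with NPCT without a call (-0.01 to 0.47, adjusted p = 0.180) and differed by 0.85 between the peptides (0.61 to 1.09, adjusted p = 0.00257). The PCT call was lost without any 1 of the vehicle libraries (adjusted p from 0.0577 to 0.0680) and without PCT replicate 2, where the difference of -0.53 was under 1.5-fold, whereas the call between the peptides remained in each of them. NPCT replicate 3 gave the highest value, and without it the NPCT difference was 0.13 (adjusted p = 0.429).

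Relative to gp130, Il11ra1 was at 0.341 ± 0.0322 in vehicle, 0.451 ± 0.0133 in NPCT and 0.224 ± 0.0534 in PCT libraries (SD, n = 3). The 3 groups of ratios did not overlap. Il11 itself, the ligand, had 0.675 ± 0.0720 FPKM in vehicle and 0.810 ± 0.210 in PCT libraries and was not called (limma adjusted p = 0.801).

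Il6r, the chain that binds IL-6, lies on chromosome 2 from 189205701 to 189254628 (minus strand). It had 1.97, 2.20 and 2.25 FPKM with vehicle, 2.57, 2.30 and 3.63 with NPCT and 2.20, 2.16 and 1.91 with PCT. The NPCT libraries lay above the other 6, NPCT replicate 3 farthest. The log2 difference of 0.36 with NPCT (-0.05 to 0.78, limma adjusted p = 0.223) was not called and was 0.17 without that library (adjusted p = 0.526). With PCT it was -0.04 (-0.45 to 0.38, adjusted p = 0.949). Il6, the ligand, was under the limit for testing, with 0, 0.128 and 0.0661 FPKM with vehicle, 0 in all NPCT libraries and 0.193, 0.202 and 0.491 with PCT. The PCT libraries lay above the other 6, but on 3, 3 and 9 fragments against 0, 2 and 1 with vehicle.

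Il10rb, the shared second chain of the receptors for IL-10, IL-22 and the lambda interferons, lies on chromosome 11 from 31560530 to 31582457 (plus strand). It had 4.30, 3.79 and 3.83 FPKM with vehicle, 2.38, 2.59 and 3.69 with NPCT and 2.20, 2.14 and 2.59 with PCT. All 6 libraries with a peptide were below the vehicle libraries, NPCT replicate 3 only just. The PCT difference of -0.76 (-1.16 to -0.36, limma adjusted p = 0.0489) passed the threshold narrowly, and without 1 library its adjusted p ranged from 0.0180 to 0.186. It was called in 1 of the 9 such fits, that without NPCT replicate 3, a library of neither group compared. The call was lost without any 1 of the vehicle or PCT libraries. With NPCT the difference was -0.47 (-0.87 to -0.07, adjusted p = 0.120), or -0.66 without NPCT replicate 3 (adjusted p = 0.130). Il10ra, which binds IL-10, had 0.603 ± 0.274 FPKM in vehicle, 0.503, 0.560 and 1.92 in the NPCT libraries and 0.138 ± 0.0329 in PCT libraries. It was not called with PCT (limma adjusted p = 0.207) and met the limit for testing only with NPCT replicate 3 included. Il10 had at most 0.315 FPKM.

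The row named Il13ra1 needs a limit beside it. IL-13 receptor alpha 1 pairs with Il4r and binds IL-13. The row lies on chromosome 11 from 74862804 to 74866451 (minus strand) as 1 block of 3648 bases within the span of Atp13a4, and none of the 8 genes around it is among the 8 neighbours that RefSeq gives Il13ra1 on the X chromosome. Another row, LOC100360218, from 122724129 to 122781479 on the X chromosome, shares 3 of those neighbours, Dock11, Zcchc12 and Lonrf3, and its description is of a like receptor chain. It was looked up after the values were seen.

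The row named Il13ra1 had 0.411, 0.681 and 0.720 FPKM with vehicle, 0.568, 0.726 and 0.763 with NPCT and 0.370, 0.347 and 0.281 with PCT, from 18 to 43 fragments a library. PCT libraries were lowest, vehicle replicate 1 next. Its PCT difference was -0.68 (-1.54 to 0.19, limma adjusted p = 0.386) and its NPCT difference 0.18 (-0.68 to 1.05, adjusted p = 0.784). The row on the X chromosome was higher in every library, with 10.4, 9.12 and 9.49 FPKM with vehicle, 4.13, 6.42 and 6.32 with NPCT and 2.10, 5.22 and 4.27 with PCT. Every library with a peptide was below the vehicle libraries. It fell by 1.39 on the log2 scale with PCT (-2.08 to -0.71, limma adjusted p = 0.0395), a call kept in 4 of the 9 fits that left out 1 library, and differed by -0.80 with NPCT (-1.48 to -0.11, adjusted p = 0.123), or -0.90 without NPCT replicate 3 (adjusted p = 0.189). The NPCT difference was called in 2 of 18 alternatives, with only the 6 libraries compared (adjusted p = 0.0238) and without PCT replicate 1 (adjusted p = 0.0495). The 2 rows thus differed in level and in whether PCT was called. Il13 was at 0 in every library and Il13ra2 had at most 0.0535 FPKM.

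Cell type markers moved with several of these genes. Of 14 microglia markers tested, 5 were called as lower with PCT (Fcer1g, Tyrobp, Aif1, Csf1r and Cx3cr1), or 3 by limma-voom, where 1.72% of all genes were called as lower. All 14 had a negative difference, and their sum was 54.8 to 58.7 FPKM with PCT against 84.9 to 98.7 with vehicle. Of 11 astrocyte markers tested, 6 were called as lower and 10 had a negative difference, with a sum of 2178 to 2249 FPKM against 2548 to 2735. Gfap went the other way without a call (limma adjusted p = 0.147). It had 776 ± 48.1 FPKM with vehicle and 919 ± 17.2 with PCT (SD, n = 3), and every PCT library was above the vehicle libraries. Of 15 neuron markers, limma called 0 with PCT (3 at an unadjusted p under 0.05, where 18.9% of all genes were, and 0 called by limma-voom), with sums of 2450 to 2665 FPKM with PCT and 2489 to 2603 with vehicle. Il18, Il7, Il11ra1 and Il10rb fell in the same PCT libraries, and the part of these markers in their fall was not tested. Il1rap rose in them. Between the peptides, with NPCT replicate 3 included, 9 of the 14 microglia markers were called as higher with NPCT (13 positive, median 2.09). So were 3 of the 11 astrocyte markers (10 positive, median 0.50), where 4.38% of all genes were. Of 8 fibroblast and meningeal markers tested, 1 was called with PCT (Col3a1, higher), where 0.589% of all genes were called as higher, and 6 had a positive difference. Between the peptides 7 of the 8 were negative, with a median of -0.50 and calls for Col3a1, lower with NPCT, and Ptgds, higher, where 5.76% of all genes were called. Their sum was 66.8 to 81.0 FPKM with NPCT, 92.1 to 99.0 with vehicle and 92.4 to 111 with PCT, so that NPCT libraries were lowest. The endothelial and pericyte sum was 4.53 to 4.98 FPKM with PCT against 5.02 to 5.43 with vehicle, and proliferation markers overlapped between these groups (148 to 159 against 136 to 152). NPCT replicate 3, where microglia markers were highest, was also the highest NPCT library for 8 of the 10 genes, against 38.0% of all genes tested. Among these were Il10rb (3.69 FPKM beside 2.38 and 2.59), Il11ra1 (16.8 beside 13.7 and 13.9) and Il7 (1.67 beside 1.38 and 1.60), which fell with PCT, but also Il1rap (3.91 beside 2.95 and 2.73), which rose with PCT, and Il1r1, Il6st, Il6r and the row named Il13ra1, which were not called. Il18, which fell with PCT, had 2.19 FPKM there, between the 2.14 and 2.77 of the other NPCT libraries, and Il33 was lowest there.

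**Figure D4:**
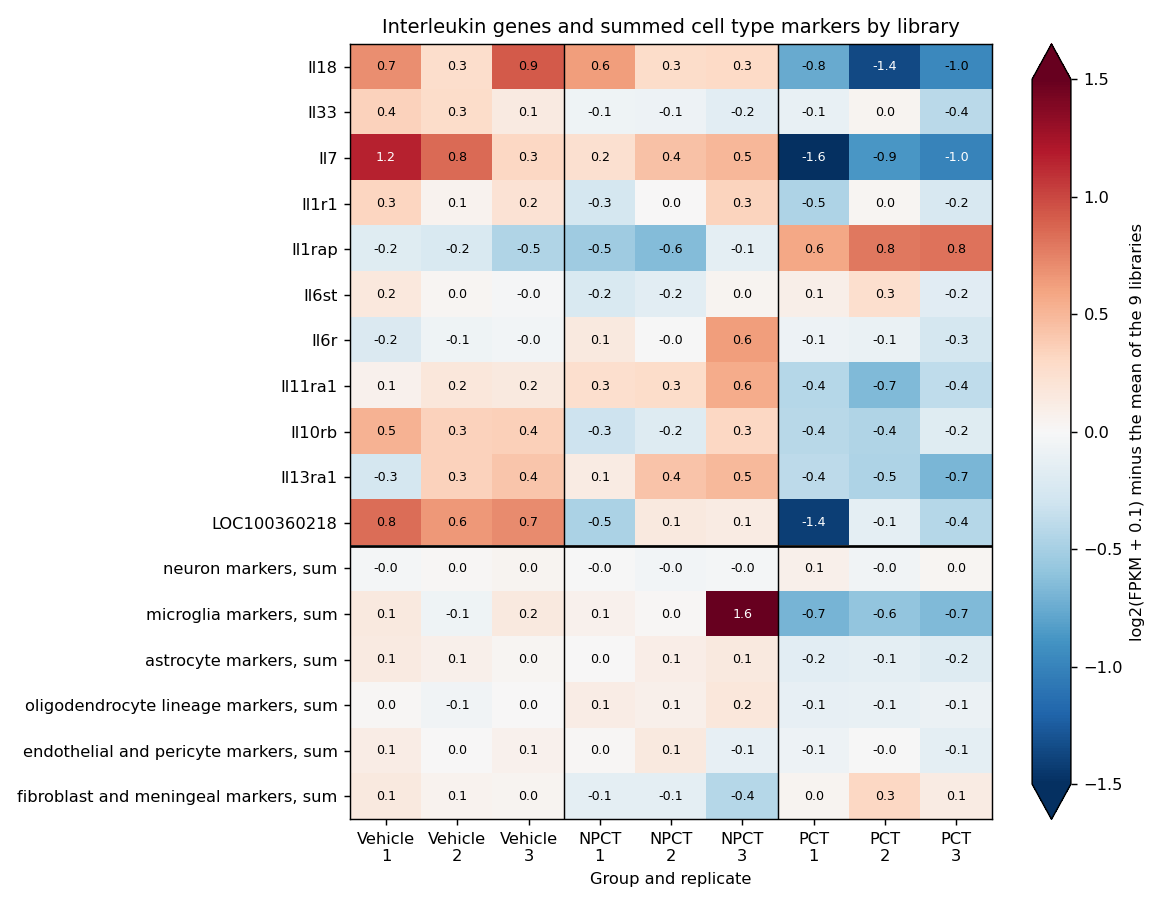
Log2(FPKM + 0.1) of each gene, of the row LOC100360218 and of the summed markers of 6 cell types (rows), minus the mean of the 9 libraries (columns); red is above and blue below that mean. Microglia markers stand out in NPCT replicate 3 and are low in the 3 PCT libraries, in which Il18 and Il7 are low and Il1rap is high.

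The genes whose levels over the 9 libraries most resembled each of the 10 were found by Pearson r of log2(FPKM + 0.1), among 12762 genes with a symbol and a mean of at least 1 FPKM. The points share their libraries and groups, so r is a description. Il18 was nearest to Mamstr (r = 0.979) and Olig1 (0.973), and Il33 to Sertad4 (0.980) and Eogt (0.973). Il7 was nearest to Cd180 (0.975), a Toll-like receptor relative of immune cells, and Gsap (0.974). Olig1, a factor of the oligodendrocyte lineage, was lower with PCT (-0.51, limma adjusted p = 0.00161), under 1.5-fold, whereas 10 of the 12 markers of that lineage had a positive difference with PCT (median 0.23) and limma called 0 of the 12 (4 at an unadjusted p under 0.05, where 18.9% of all genes were, and 0 called by limma-voom). Their sum went the other way, with 493 to 502 FPKM in PCT libraries, all below the 516 to 543 with vehicle. Olig1 is part of that sum. Its mean fell from 272 FPKM with vehicle to 191 with PCT, more than that of the sum, which fell from 533 to 498 FPKM. For the IL-1 receptor chains the nearest were Piezo1 (0.958) and Zfp217 (0.938) beside Il1r1 and RragB (0.989) and Cnbp (0.986) beside Il1rap.

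In the IL-6 family, Il6st was nearest to Fpgt (0.967) and Twf1 (0.960), Il6r to Gnai2 (0.960) and Ccdc92 (0.950) and Il11ra1 to Vstm4 (0.991) and Paqr7 (0.986). Il10rb was nearest to Cx3cl1 (0.980), the neuronal ligand of the microglial receptor Cx3cr1, and Slc16a1 (0.917), and the row named Il13ra1 to Phyh (0.973) and Gmpr (0.947). Among the 10 themselves, the 6 strongest correlations were those of Il1rap, which ran opposite to Il18 (r = -0.92, n = 9 libraries), Il11ra1 (-0.87) and the row named Il13ra1 (-0.86), of Il11ra1 with the row named Il13ra1 (0.87), and of Il18 with Il11ra1 (0.85) and Il7 (0.84).

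The other genes of these pathways were taken as 8 lists with 160 symbols, of which 153 were in the table and 84 were tested. With NPCT, limma called 0 of the 84, with 15 at an unadjusted p under 0.05, where 29.3% of all genes were, and limma-voom called 2 (Il1rapl1 and Osmr). With PCT, 8 of the 84 were called, where 2.31% of all genes were: Lif, Timp1, Cxcl1 and Nfkbia as higher, and Il17rd, Il34, Stat5a and Lcn2 as lower. Under the limit for testing were 69 of the 153 genes, or 45.1%, against 53.2% of all genes in the table. By list this ran from 1 of 27 signalling genes and 2 of 21 feedback and response genes to 19 of 24 relatives of the common gamma chain and 14 of 17 further genes of the IL-1 family. Il1b, the ligand of the IL-1 receptor, had 1.01 ± 0.273 FPKM in vehicle, 0.947 ± 0.0647 in NPCT and 1.04 ± 0.284 in PCT libraries and was not called (limma adjusted p = 0.914 and 0.967).

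Among the 10 further genes of the IL-6 family tested, 1 was called with PCT, where 2.31% of all genes were, and 8 were at an unadjusted p under 0.05, where 18.9% of all genes were. Lif, a gp130 ligand, had 1.44, 0.995 and 1.06 FPKM with vehicle and between 2.42 and 4.35 with PCT, a rise of 1.39 on the log2 scale (limma adjusted p = 0.0256). Osmr, the oncostatin M receptor that also pairs with gp130, had 12.2 ± 1.64 FPKM in vehicle, 7.19 ± 1.26 in NPCT and 16.5 ± 2.20 in PCT libraries and was called between the peptides (-1.19, limma adjusted p = 0.00277). With NPCT all its libraries were below vehicle and the difference of -0.76 just missed the threshold (limma adjusted p = 0.0509). Without NPCT replicate 3 these were -1.33 between the peptides (adjusted p = 0.00296) and -0.90 with NPCT (adjusted p = 0.130). With PCT the difference was 0.43 (adjusted p = 0.163). Cntfr, highest of that list at 50.3 ± 1.26 FPKM in vehicle libraries, was not called with NPCT or PCT (adjusted p = 0.254 and 0.150). With PCT 5 of the list had a positive and 5 a negative difference, with a median of 0.01 against 0.0046 over all genes tested.

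In the IL-1, common gamma chain and IL-10 lists, limma called 0 of 14 tested genes with PCT (3 at an unadjusted p under 0.05, a share near the 18.9% of all genes, and 0 called by limma-voom). Among the 9 tested genes of the IL-12, IL-17 and remaining families 2 were called, where 2.31% of all genes were. There Il34, a ligand of Csf1r, fell from 3.01 ± 0.470 to 1.31 ± 0.205 FPKM (-1.14, limma adjusted p = 0.0366), and Il17rd, a receptor-like regulator of growth factor signalling, from 5.02 ± 0.410 to 3.01 ± 0.0742 FPKM (-0.72, adjusted p = 0.0229). The highest genes of these lists were not called with PCT, namely Il17d with 14.2 ± 0.596, Il3ra with 11.7 ± 0.388 and Ifnar1 with 47.9 ± 1.40 FPKM in vehicle libraries (adjusted p = 0.610, 0.957 and 0.288). Il4r, the partner of IL-13 receptor alpha 1, had 2.52 ± 0.137 FPKM in vehicle and 1.25 ± 0.216 in PCT libraries without a call (-0.96, adjusted p = 0.139). Its NPCT libraries had 2.13, 2.99 and 5.82 FPKM, and it was called between the peptides (1.36, limma adjusted p = 0.0246). Without NPCT replicate 3 that difference was 0.96 (adjusted p = 0.0359).

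Downstream of the receptors, 1 of 26 signalling genes was called with PCT, a share near the 2.31% of all genes. Of 19 feedback and response genes 4 were called. Stat5a, which IL-7 receptors among others activate, fell from 1.54 ± 0.381 to 0.346 ± 0.168 FPKM (-1.92, limma adjusted p = 0.0320), whereas Jak1, the highest of its list, stood at 60.5 ± 0.983 and 59.8 ± 4.60 FPKM. Cxcl1, a chemokine induced by IL-1, had 5.77, 4.71 and 4.85 FPKM with vehicle and 17.8, 35.4 and 23.9 with PCT, a difference of 2.25 (adjusted p = 0.00161). Nfkbia, the NF-kB inhibitor that NF-kB induces, rose by 0.72 (adjusted p = 0.0411) and Timp1, a gp130-responsive protease inhibitor, by 1.14 (adjusted p = 0.000662).

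Lcn2, a secreted protein that IL-1 and IL-6 family signals induce, went the other way, from 1321, 1025 and 1205 FPKM with vehicle to 27.6, 74.9 and 41.0 with PCT, a log2 difference of -4.74 (limma adjusted p = 0.000145). With NPCT it had 753, 912 and 1032 FPKM and was not called (-0.40, adjusted p = 0.407, or -0.51 and 0.406 without NPCT replicate 3). Of 6 genes tested that process IL-1 family cytokines or shed the IL-6 receptor, limma called 0 with PCT (1 at an unadjusted p under 0.05, where 18.9% of all genes were, and 0 called by limma-voom), and Casp4, the highest, had 28.8 ± 2.42 FPKM in vehicle and 27.4 ± 1.90 in PCT libraries (adjusted p = 0.852). Casp1, which cuts IL-18, was under the limit for testing with at most 0.930 FPKM.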

How the data were processed

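RNA of hippocampal neuron cultures was sequenced as 9 libraries. Per the labels and the submitters' processing notes, the authors aligned reads with HISAT2 2.0.5 to Rnor_6.0, counted them with featureCounts 1.5.0-p3 and deposited FPKM values, unlogged, for each gene and library. The notes also name StringTie 1.3.3b. The product of FPKM and gene length moved in steps of 1 fragment (100% of values above 0 were whole, tolerance 0.01), which gave back the fragments, from 13573056 to 17211642 a library. Low genes are therefore known to a few fragments only.

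Libraries were scaled by median ratios, whose factors were all 1. The deposited values thus already had equal median ratios, and this step left them unchanged. The values are FPKM, so limma 3.58.1 (R 4.3.3) was fitted to log2(FPKM + 0.1) of genes with a mean of at least 0.5 FPKM, with a trended prior, over all 9 libraries. Benjamini-Hochberg adjustment ran over all genes of 1 comparison, and fold changes understate the change of low genes. Tables were made with Python 3.11.15 and pandas 2.3.3.

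The 10 genes and all lists were chosen with earlier results of these data known. Named besides the 10 were, in each list, the highest gene and up to 4 genes called against vehicle per comparison, and the 2 genes of highest Pearson r with each of the 10 (clone names left out). Partner genes outside this rule were named after their values were seen. Alternatives were a pseudocount of 1, no filter, values as deposited, quantile normalization and only the 6 libraries of a comparison. Further alternatives were a block for the replicate number, gene length trends taken out, limma-voom on the fragments and leaving out each library. As the factors were all 1, the values as deposited repeat the main fit and are no separate check, though counted among the 18 alternatives. The pathway genes were refitted without NPCT replicate 3 after the data were seen. Promoter windows and neighbouring genes are from RefSeq (GRCr8), in which all 10 symbols were found, and no coordinates were converted between assemblies. Beyond these promoter windows, no genome sequence was used here.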

Additional observations from a re-analysis of the deposited data

Results flagged for a closer look

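The effects of the peptides differed directly, with NPCT and PCT libraries compared in the same limma fit (adjusted p of at most 0.05 and above 1.5-fold), for 4 of the 10 genes. On the log2 scale NPCT minus PCT was 1.42 for Il18, 1.56 for Il7 and 0.85 for Il11ra1, each lower with PCT than with vehicle, and -1.17 for Il1rap, higher with PCT. Of the 84 pathway genes tested, 18 were called between the peptides, where 5.76% of all genes were. Of these, 7 were also called for PCT against vehicle, a comparison that uses the same PCT libraries. The difference was 4.34 for Lcn2, 1.83 for Stat5a and 1.13 for Il34, and -2.16 for Cxcl1, -1.47 for Timp1, -1.21 for Lif and -0.74 for Nfkbia. Il17rd, the other pathway gene called for PCT against vehicle, was not called between the peptides (0.42, adjusted p = 0.0638). The remaining 11 were Crlf2, Csf2ra, Il4r, Ebi3, Gsdmd, Pycard, Shc1 and Cebpb, higher with NPCT, and Osmr, Ccl2 and Nfkbiz, lower with NPCT. Without NPCT replicate 3, limma called 14 of 83 pathway genes between the peptides, where 3.93% of all genes were, and 12 of these were among the 18. The 6 calls lost were Stat5a (1.60, adjusted p = 0.0606), Pycard (1.58, adjusted p = 0.0776), Ebi3 (0.64, adjusted p = 0.0824), Crlf2 (0.60, adjusted p = 0.108) and, by falling under 1.5-fold, Cebpb (0.53) and Shc1 (0.50). Pim1 and Stat3 gained a call. All 3 PCT libraries lay on the same side of all 3 NPCT libraries in the 4 interleukin genes. In the same comparison 9 of 14 microglia and 3 of 11 astrocyte markers were called as higher with NPCT, where 4.38% of all genes were. The part of these markers in the differences between the peptides was not tested.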

How the results depend on the processing

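The PCT calls of Il18 and Il1rap, and the 4 calls between the peptides, held in every alternative run. The run on values as deposited repeats the main fit, so its outcome could not differ. The number of the 10 genes called with PCT was 3 with a pseudocount of 1, and 2 to 5 with 1 library left out. All genes called with NPCT numbered 35, against 9 without a filter, 189 after quantile normalization, 579 with only the 6 libraries compared, 55 with the length trend removed, 354 with limma-voom and 0 to 560 with 1 library left out. For PCT the 368 became 172 to 391 with 1 library left out. The 919 between the peptides became 454 with only their 6 libraries and 527 to 1625 with 1 library left out. The 560 with NPCT and the 1625 between the peptides were both found without PCT replicate 3. The causes were not tested.

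Replicate numbers did not pair the libraries (correlations of departures from -0.07 to 0.03). With the replicate number as a block, 319 genes were called with NPCT, or 174 with the length trend also removed, and Il10rb with PCT lost its call (adjusted p = 0.0621). Il10rb with PCT was called in 5 of 18 alternatives, among them the values as deposited. It lost its call also with a pseudocount of 1, without the filter and after quantile normalization.

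Uncalled differences near 0 changed sign. Il6r with PCT was 0.044 after quantile normalization, 0.021 with the length trend removed, with or without the block, and -0.091 to 0.022 with 1 library left out. Il6st with PCT was -0.028 after quantile normalization, -0.0022 with limma-voom and -0.097 to 0.11 with 1 library left out. Il13ra1 with NPCT was -0.033 to 0.31, and Il33 between the peptides -0.066 to 0.16, with 1 library left out. Il13ra1 was called between the peptides by limma-voom alone (1.04). LOC100360218 gained a call with NPCT with only the 6 libraries compared and without PCT replicate 1 (-0.80 in both). It kept its PCT call in 11 of 18 alternatives, among them the values as deposited. Depth limits Il7, Il18 and Il13ra1 most, with as few as 5 fragments in a library.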
